A study of Mus musculus with 8 samples.

Results

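The C2cd4 family of the mouse holds 4 genes, C2cd4a, C2cd4b, C2cd4c and C2cd4d, and its members are described here out of 55414 genes in the count table. They were selected on the outcome itself, since C2cd4b was higher and C2cd4c lower after tumor necrosis factor (TNF), so their own differences between the groups are given as a description and carry no p-value. RNA was sequenced from Paneth cells, the defensin-secreting cells of the crypt bottom, which were sorted from the small intestine of WT mice 3 hours after an injection of PBS or of TNF. There were 4 PBS and 4 TNF libraries, and the strain in the study's methods is C57BL/6J. The methods describe each sample as cells of a single mouse, and the sources used here give neither the age of the animals nor the dose of TNF.

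The family is named after the C2 domain, a fold that in many proteins binds membrane lipids in the presence of calcium. C2CD4A and C2CD4B were first described as nuclear factors that endothelial cells switch on when they meet inflammatory cytokines, and the chromosomal region that holds them beside VPS13C is known from human genetics for its association with type 2 diabetes. In pancreatic beta cells C2CD4A has been described as a partner of the transcription factor FOXO1, whereas C2CD4C and C2CD4D are much less studied.

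The coding sequence of each of the 4 members lies in 1 exon. C2cd4b (ENSMUSG00000091956) occupies chr9:67666706-67668212 on the plus strand of GRCm39, and C2cd4a (ENSMUSG00000047990) lies 68.8 kb away at chr9:67736999-67748139 on the minus strand. C2cd4c (ENSMUSG00000045912) is at chr10:79442688-79450027 on the minus strand, and C2cd4d (ENSMUSG00000091648) is at chr3:94269707-94271873 on the plus strand. The encoded proteins are 334 (C2cd4a), 340 (C2cd4b), 419 (C2cd4c) and 341 (C2cd4d) residues long. C2cd4a and C2cd4b, the neighbours on chromosome 9, were the closest pair, with 82.3% identical residues in a global alignment. Every other pair shared between 40.5% and 47.2%. Lysine and arginine made up 18% of C2cd4a and 16.5% of C2cd4b, against 13.8% of C2cd4c and 14.4% of C2cd4d.

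The bases just before the start sites of the members that were measured are shown, because C2cd4b and C2cd4c moved in opposite directions and C2cd4a is the nearest relative of C2cd4b. They come from RefSeq promoter windows of 300 bases (250 before and 50 after the start site, from a GRCm38.p6 table), which were placed on GRCm39 by their unique exact match, and the stretches printed are those outside the annotated exons of the member. Both strands were searched for 8 motifs, namely the kappaB consensus bound by NF-kB, its shorter form GGNNNTTCC, the AP-1 site TGANTCA, the interferon-stimulated response element, the TATA box TATAAA, the FOXO site GTAAACA, the TCF site CTTTGA and the E-box CACGTG. The shorter kappaB form can overlap the consensus. Capitals mark a match.

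C2cd4b upstream, chr9:67666469-67666705, plus strand: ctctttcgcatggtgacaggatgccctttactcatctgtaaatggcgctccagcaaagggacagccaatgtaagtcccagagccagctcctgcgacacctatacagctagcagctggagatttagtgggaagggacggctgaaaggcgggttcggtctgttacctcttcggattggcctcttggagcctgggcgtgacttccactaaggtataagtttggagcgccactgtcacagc
C2cd4a upstream, chr9:67739614-67739862, minus strand: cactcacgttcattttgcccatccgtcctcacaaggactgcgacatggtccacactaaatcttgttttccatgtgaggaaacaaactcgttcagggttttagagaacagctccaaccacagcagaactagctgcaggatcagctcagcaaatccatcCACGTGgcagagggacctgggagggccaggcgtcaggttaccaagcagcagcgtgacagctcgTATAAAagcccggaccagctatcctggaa
C2cd4c upstream, chr10:79450028-79450109, minus strand: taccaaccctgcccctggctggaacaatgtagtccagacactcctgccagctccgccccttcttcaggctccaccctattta
C2cd4c kappaB match, chr10:79449888-79449917, minus strand: ccgccagttcGGGAGGCCCCgcccctcgcg

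The window of C2cd4b held a match to none of the 8 motifs, which says only that these letters are not in this window. Its printed bases lie inside an exon of an antisense gene, M5C1000I18Rik, on the minus strand. The window of C2cd4a lies within the gene body as GENCODE draws it, and it held a TATA box at -30 to -25 and an E-box at -93 to -88 relative to the RefSeq start site. The window of C2cd4c held a match to the kappaB consensus at -48 to -39 and, on the opposite strand, a TATA box at -87 to -82, both in bases that GENCODE counts as exon, of which only the kappaB match is printed. The window of C2cd4d, at chr3:94269501-94269800, held the shorter kappaB form at -195 to -187 and, on the opposite strand, at -65 to -57. Among 32851 promoter windows of the same length, 8.46% held the kappaB consensus, 18.5% the shorter form, 7.81% the AP-1 site, 3.44% the interferon element, 13.6% the TATA box, 3.65% the FOXO site, 16.0% the TCF site and 7.15% the E-box. The C2cd4c window had a GC content of 65.0%, above that of 81.7% of all windows, and 23 CpG sites. The windows of C2cd4a, C2cd4b and C2cd4d had a GC content of 52.3%, 54.7% and 55.7%, near the median of 52.7%, with 14, 12 and 6 CpG sites against a median of 7. A match is a description of the sequence, and no binding was measured.

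Between 23824717 and 32576077 counts were assigned to genes per library. Of the 13368 genes that passed the filter on low counts, 5746 (43.0%) were called at an adjusted p under 0.05 by the quasi-likelihood test of edgeR, 23.3% as higher and 19.6% as lower after TNF. All 4 TNF libraries lay above all 4 PBS libraries for 22.4% of the genes tested, and below them for 19.7%. The median log2 fold change over all genes tested was 0.03. With library size alone in place of TMM scaling that median shifted by -0.40, and 757 genes were called higher against 2425 lower in place of 3121 and 2625. TNF replicate 4 stood apart from the others along the second principal component (15.8% of the variance, score 63.9 against -29.1 to 4.22), and its TMM scaling factor was 0.448 against 0.995 to 1.36 elsewhere. In bulk RNA, fewer cells that carry a transcript and less of it per cell cannot be told apart.

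Of the 4 members, 3 passed the filter on low counts. C2cd4a did so mostly through its counts in the TNF libraries, and C2cd4d did not pass. Values per library are given as normalized CPM, the counts scaled to the library size after TMM scaling, and fitted log2 differences, or log2 fold changes, are TNF minus PBS. Among the members tested, C2cd4b was higher in every TNF library than in any PBS library and C2cd4c was lower. This is how the members were chosen, and nothing is read from it against the shares of all genes above.

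In the PBS libraries 1 to 4, C2cd4b had 30, 31, 30 and 32 counts, which is 0.805, 1.15, 1.18 and 0.724 normalized CPM. In the TNF libraries 1 to 4 it had 1780, 2451, 2892 and 747 counts, which is 63.2, 84.9, 102.0 and 64.2 normalized CPM. The groups were far from overlapping, with 747 counts in the lowest TNF library and 32 in the highest PBS library. The mean was 0.966 ± 0.236 (SD, n = 4) after PBS and 78.4 ± 18.4 (SD, n = 4) after TNF, a fitted log2 difference of 6.37 (SE 0.24), or 82.8-fold. It was the 35th largest rise of the genes tested. TNF replicate 4 was the lowest of its group by raw count and by CPM without scaling, 28.7 against 69.8 to 108.0, and was in the range of the other TNF libraries once scaled.

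C2cd4c went the other way. In the PBS libraries 1 to 4 it had 400, 237, 233 and 359 counts, which is 10.7, 8.82, 9.19 and 8.13 normalized CPM. In the TNF libraries 1 to 4 it had 25, 29, 21 and 7 counts, which is 0.888, 1.0, 0.737 and 0.602 normalized CPM. All PBS libraries were high and close together, and all TNF libraries were low. The mean fell from 9.21 ± 1.1 (SD, n = 4) to 0.808 ± 0.176 (SD, n = 4), a fitted log2 difference of -3.46 (SE 0.19), or 11.0-fold lower, the 30th largest fall of the genes tested.

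C2cd4a, the neighbour and closest relative of C2cd4b, was scarce throughout. In the PBS libraries 1 to 4 it had 18, 2, 9 and 5 counts, which is 0.483, 0.0744, 0.355 and 0.113 normalized CPM. In the TNF libraries 1 to 4 it had 19, 33, 13 and 7 counts, which is 0.675, 1.14, 0.456 and 0.602 normalized CPM. The groups overlapped, because PBS replicate 1 (0.483) lay above TNF replicate 3 (0.456). The mean was 0.256 ± 0.195 (SD, n = 4) after PBS and 0.719 ± 0.297 (SD, n = 4) after TNF, a fitted log2 difference of 1.5 (SE 0.54). Across the PBS libraries the SD of its log2 values was 0.94, compared with 0.33 for C2cd4b and 0.17 for C2cd4c.

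C2cd4d had 1, 1, 1 and 3 counts in the PBS libraries 1 to 4 and 0 in each TNF library. Both groups are at or under the limit of 3 counts that a library at 0 allows, which is 0.103 to 0.118 CPM in the TNF libraries, so no fold is given. At this depth a difference in C2cd4d was not detectable. Without TNF replicate 4, the library that stood apart, the log2 fold changes were 6.48 (SE 0.21) for C2cd4b, -3.37 (SE 0.18) for C2cd4c and 1.57 (SE 0.56) for C2cd4a.

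**Figure D1:**
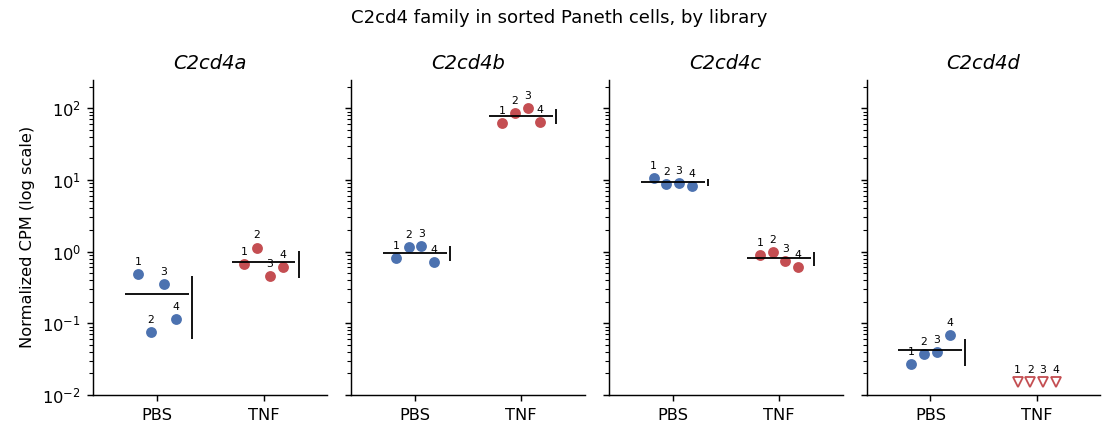
Normalized CPM (log scale) of each C2cd4 member in the 4 PBS (blue) and 4 TNF (red) libraries, with the replicate number beside each point, the group mean as a horizontal line and 1 SD as a vertical bar; open triangles at the foot stand for 0 counts. C2cd4b lies at 0.724 to 1.18 after PBS and 63.2 to 102.0 after TNF, C2cd4c at 8.13 to 10.7 and then 0.602 to 1.0, while the groups of C2cd4a overlap.

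The balance within the family turned over between the groups. After PBS, C2cd4c took 88.0 ± 2.03% (SD, n = 4) of all counts on the 4 members, C2cd4b 9.28 ± 2.3%, C2cd4a 2.32 ± 1.58% and C2cd4d 0.427 ± 0.227%. After TNF, C2cd4b took 98.0 ± 0.609% (SD, n = 4), C2cd4c 1.04 ± 0.283% and C2cd4a 0.93 ± 0.363%. The share of the leading member varied little within a group. It was 85.3% to 90% for C2cd4c in the PBS libraries and 97.5% to 98.8% for C2cd4b in the TNF libraries, TNF replicate 4 included at 98.2%. Smaller shares varied more, from 0.738% to 4.01% for C2cd4a and from 6.68% to 11.4% for C2cd4b in the PBS libraries. Shares within a library do not depend on how libraries are scaled. They are shares of counts and were not corrected for length, with 6.92 kb of exon in C2cd4c and 1.34 kb in C2cd4b. The counts of the whole family came to 449, 271, 273 and 399 in the PBS libraries and 1824, 2513, 2926 and 761 in the TNF libraries.

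**Figure D2:**
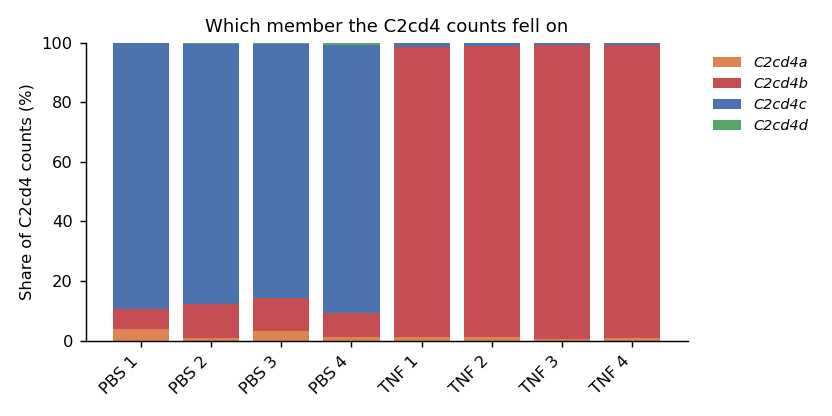
Share of the counts on the 4 C2cd4 members (%, from 0 to 100) that fell on each member, 1 bar per library. C2cd4c fills 85.3% to 90% of each PBS bar and C2cd4b 97.5% to 98.8% of each TNF bar.

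Levels of different genes were compared per length, as normalized CPM per kb of exon. After PBS the order was C2cd4c, C2cd4b, C2cd4a and C2cd4d. C2cd4c stood at 1.33 ± 0.159 (SD, n = 4; range 1.17 to 1.55), a level above that of 46.4% of the genes tested. C2cd4b followed at 0.721 ± 0.176 (SD, n = 4; range 0.541 to 0.883), 1.85-fold lower with no overlap. The exons of C2cd4c add up to 6.92 kb and those of C2cd4b to 1.34 kb, so the gap between them was narrower per length than in counts. C2cd4a was at 0.111 ± 0.0843 (SD, n = 4), 6.52-fold below C2cd4b with no overlap, whereas C2cd4a and C2cd4d (0.0216 ± 0.00886, SD, n = 4) overlapped and cannot be ordered.

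After TNF, C2cd4b led with 58.5 ± 13.7 normalized CPM per kb (SD, n = 4), above 98.1% of the genes tested. C2cd4a came next at 0.31 ± 0.128 (SD, n = 4), 189.0-fold below C2cd4b. C2cd4c, at 0.117 ± 0.0254 (SD, n = 4), was 2.66-fold below C2cd4a, and the ranges of these members, 0.197 to 0.493 and 0.0869 to 0.145, did not overlap. By these values C2cd4c went from the first place to the third. C2cd4a had only 72 counts in the TNF libraries, and some of its sequence is shared with C2cd4b. Whether these counts came from C2cd4b was not tested, so the place of C2cd4a above C2cd4c is uncertain.

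C2cd4b shares its locus with M5C1000I18Rik (ENSMUSG00000055125), a long noncoding RNA gene on the opposite strand at chr9:67665620-67667512. Their exons overlap over 640 of the 1340 exon bases of C2cd4b. M5C1000I18Rik had 20, 30, 22 and 20 counts in the PBS libraries and 1225, 1729, 1961 and 519 in the TNF libraries. It was therefore high and low in the same libraries as C2cd4b, and its mean was 0.743 ± 0.306 (SD, n = 4) and 54.2 ± 12.3 (SD, n = 4) normalized CPM, a fitted log2 difference of 6.24 (SE 0.29). Its counts per count of C2cd4b were 0.667, 0.968, 0.733 and 0.625 after PBS and 0.688, 0.705, 0.678 and 0.695 after TNF, a nearly fixed ratio in the TNF libraries.

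The libraries were made with a stranded kit, but the sources used here do not say whether the counting used strand. Among 26 pairs of genes in which at least 95% of the exon bases of 1 gene lie inside exons of a gene on the other strand, the inner gene had 1.29 times the counts per base of the outer gene at the median (range 0.007 to 3.93), and more than 0.5 times in 18 pairs. The pairs were split and do not settle whether strand was used. It is therefore not known whether reads of C2cd4b and M5C1000I18Rik were told apart over their shared bases. Counts of both genes together, an alternative added after the data were seen, gave a log2 fold change of 6.30 (SE 0.27).

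Sequence shared with C2cd4b made up only a small part of C2cd4a. Of the 2161 stretches of 75 bases in the main transcript of C2cd4a, 2131 (98.6%) occur in no transcript of another gene, and the rest are shared with C2cd4b. For C2cd4b the figure was 742 of 1266 (58.6%), the others being shared with M5C1000I18Rik or C2cd4a. Every such stretch of C2cd4c and C2cd4d was unique. The sources used here do not say how reads that match several genes were counted, and C2cd4b had 7870 counts in the TNF libraries against 72 of C2cd4a. How many of the 72 came from the shared stretches was not tested. C2cd4a also overlaps Vps13c on the opposite strand, over 471 bases and no exon base.

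**Figure D3:**
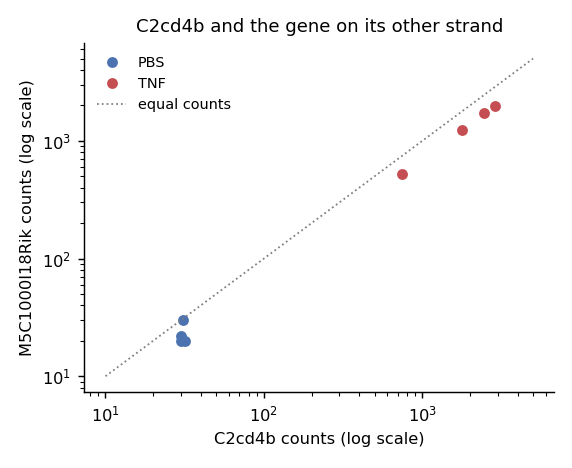
Counts of M5C1000I18Rik against counts of C2cd4b in the 4 PBS (blue) and 4 TNF (red) libraries, both on log scales, with a dotted line at equal counts. Every library lies below the line, at 0.625 to 0.968 counts of M5C1000I18Rik per count of C2cd4b.

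The protein-coding genes next to each member, 3 on either side, were taken regardless of their response. They come to 18 genes other than the members, of which 12 passed the filter and 4 were called (33.3%, against 43.0% of all genes tested), 2 higher and 2 lower. Without TNF replicate 4 these counts were 2 and 3. Their median log2 fold change was -0.10. Around C2cd4b and C2cd4a on chromosome 9, Tpm1, an actin-binding tropomyosin, was called higher, with a fitted log2 difference of 0.42 (SE 0.11, adjusted p = 0.0132 by edgeR), which was no longer called with library size alone, without the filter, and without PBS replicate 1, TNF replicate 1 or TNF replicate 2. Vps13c, a lipid transfer protein whose gene overlaps C2cd4a, had 16.1 ± 4.25 (SD, n = 4) normalized CPM after PBS and 16.3 ± 1.12 (SD, n = 4) after TNF, a fitted log2 difference of 0.01 (SE 0.18, adjusted p = 0.956 by edgeR). Tln2, Lactb, Rora and Ice2, also near this pair, were not called, with log2 fold changes from -0.62 (Ice2) to 0.49 (Rora). Ice2 was called lower with library size alone, without the filter, with DESeq2 and without TNF replicate 4, and Rora was called higher without PBS replicate 4.

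Beside C2cd4c on chromosome 10, the nearest gene measured was Shc2, an adaptor of receptor tyrosine kinases whose gene body ends 3732 bases from that of C2cd4c. Shc2 fell from 3.29 ± 0.56 (SD, n = 4) to 1.01 ± 0.289 (SD, n = 4) normalized CPM, a fitted log2 difference of -1.69 (SE 0.25, adjusted p = 0.000314 by edgeR). Plpp2, a lipid phosphatase, rose from 38.7 ± 2.34 (SD, n = 4) to 69.3 ± 6.11 (SD, n = 4), a fitted log2 difference of 0.84 (SE 0.11, adjusted p = 0.000122 by edgeR), which with library size alone was 0.46 and not called. Mier2 was not called (-0.20). Spmap2, Cimap1d and Madcam1 had no count in any library. The direction of C2cd4c was thus not that of every gene near it.

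Beside C2cd4d on chromosome 3, Them4 (0.09) and Tdrkh (-0.59) were not called, although Tdrkh was called lower without TNF replicate 3 (-0.82). Spopfm3 had no count, and Them5 with 1 count and Lingo4 with 11 counts after PBS and 3 after TNF were not tested.

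**Figure D4:**
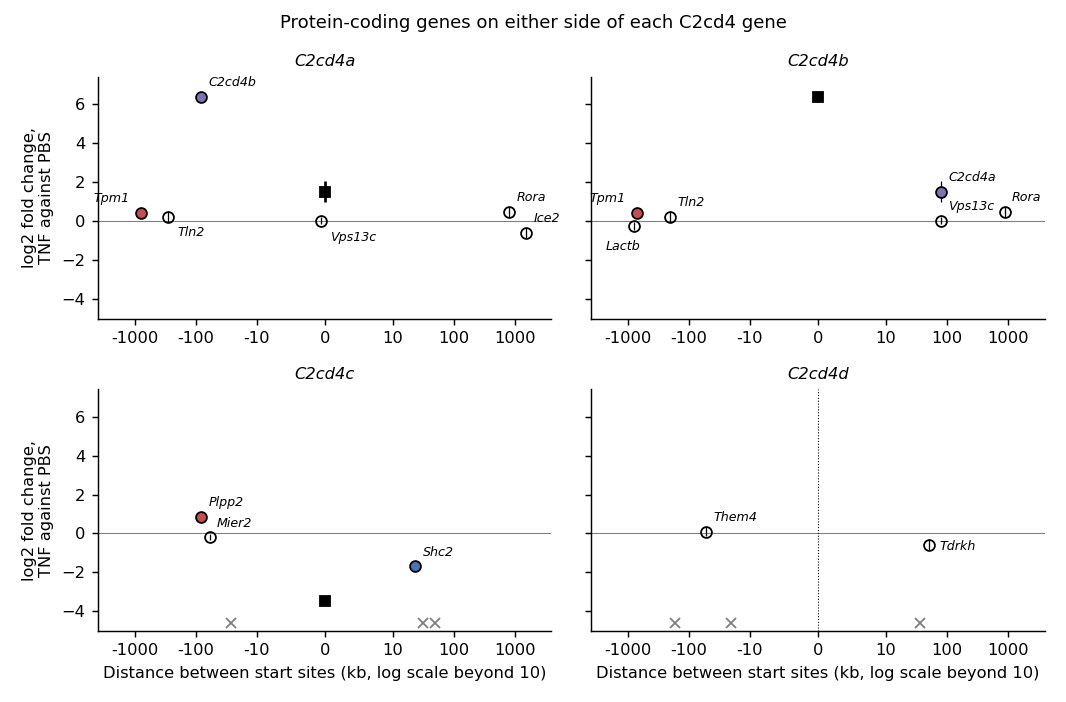
Log2 fold change (TNF against PBS, with SE) of protein-coding genes around each member, from the 3 on either side, against the distance between start sites in kb (log scale beyond 10), with lower coordinates to the left. Black squares are the members, purple circles the other member in the window, red and blue circles genes called higher and lower, open circles genes not called, crosses at the foot genes not tested and the dotted line C2cd4d; Shc2 was called lower, and Plpp2 and Tpm1 higher.

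Other genes of proteins with C2 domains were taken as a list of 56 synaptotagmins, copines, extended synaptotagmins and related genes. Of these, 26 were tested, 6 were called higher and 7 lower (50%, against 43.0% of all genes tested), and 13 had no count in any library. Their median log2 fold change was 0.06, against 0.03 for all genes, and without TNF replicate 4 the counts were 8 and 7. The smallest p belonged to Cpne8, a copine, which rose from 2.83 ± 0.314 to 14.6 ± 1.35 normalized CPM (SD, n = 4 each), a fitted log2 difference of 2.37 (SE 0.14, adjusted p = 6.39e-07 by edgeR). Esyt1, a tether between the endoplasmic reticulum and the plasma membrane, rose from 17.6 ± 2.51 to 65.0 ± 7.19 (SD, n = 4 each), a fitted log2 difference of 1.88 (SE 0.14, adjusted p = 2.48e-06 by edgeR). Syt12, a synaptotagmin, rose at a low level (log2 fold change 3.2, SE 0.38, adjusted p = 7.09e-05 by edgeR). C2cd5 (log2 fold change -0.89, SE 0.15) and C2cd3, a centriole protein (-0.77, SE 0.13), fell, with edgeR adjusted p = 0.0008 and 0.000871. The log2 fold changes of the 26 ran from -2.44 (Syt1) to 3.2 (Syt12). C2cd4b (6.37) and C2cd4c (-3.46) were chosen for their response, so nothing is read from their lying outside this range.

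**Figure D5:**
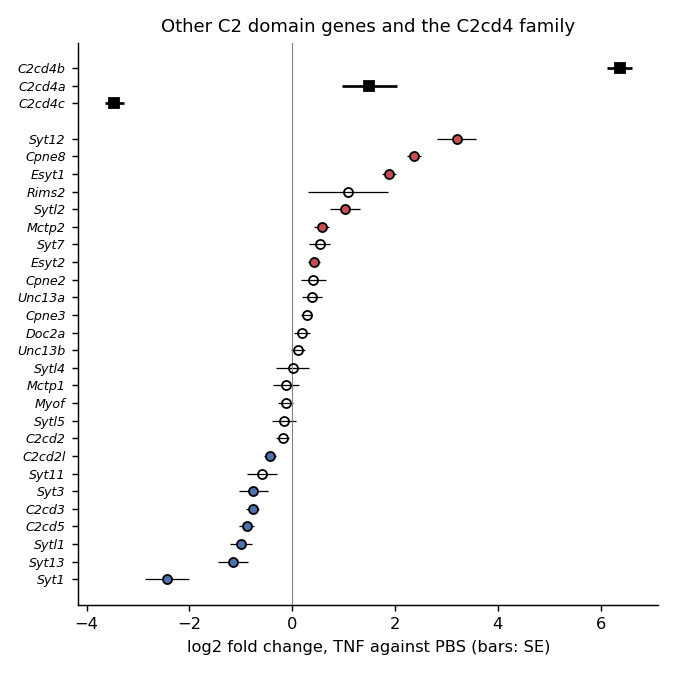
Log2 fold change (TNF against PBS, bars are SE) of the 3 C2cd4 members tested (black squares) and of the 26 other C2 domain genes tested (circles, red where called higher, blue where called lower, open where not called). The other genes run from -2.44 (Syt1) to 3.2 (Syt12). C2cd4c at -3.46 and C2cd4b at 6.37 were chosen for their response, so their place outside this range is no result.

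C2cd4a and C2cd4b are known as cytokine-induced genes, so genes of the NF-kB pathway and its feedback were set beside them. Of 18 such genes, 17 were tested, 16 were called higher and none lower (94.1%, against 43.0% of all genes tested), with a median log2 fold change of 3.39 against 0.03 for all genes. This list, like the other gene lists, was chosen with earlier results of these data known. The shares called in the lists are therefore a description. Among the 5 genes of the list with the smallest p, Icam1 had the largest log2 fold change, at 6.92 (SE 0.22, adjusted p = 4.04e-08 by edgeR), from 0.483 ± 0.183 to 61.7 ± 6.98 normalized CPM (SD, n = 4 each). Icam1 is an adhesion molecule for leukocytes. Birc3 (4.56), Nfkbia (3.86), Nfkb2 (3.27) and Relb (3.08), an inhibitor of apoptosis, the NF-kB inhibitor and both noncanonical NF-kB subunits, followed with smaller log2 fold changes. Nfkbiz was not called (0.39). Cxcl1, a chemokine for neutrophils, was also called higher and had no count in any PBS library, so its fitted value depends on the prior count and is not set beside the others. Without TNF replicate 4, 17 genes of the list were called higher.

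Genes of insulin signalling and the FOXO factors were listed because of the described tie between C2CD4A and FOXO1. All 12 were tested, 2 were called higher and 7 lower (75%, against 43.0% of all genes tested), and their median log2 fold change was -0.39. Foxo1 had a fitted log2 difference of -0.42 (SE 0.13, adjusted p = 0.0206 by edgeR), and Foxo3, Foxo4 and Foxo6 were also called lower. Pik3r1, the regulatory subunit of PI3 kinase, had a fitted log2 difference of -1.45 (SE 0.14, adjusted p = 1.53e-05 by edgeR), Irs1, a docking protein of the insulin receptor, of -2.59 (SE 0.41, adjusted p = 0.000485 by edgeR), and Insr, the receptor, of -0.75 (adjusted p = 0.000647 by edgeR). The kinases Akt2 (1.05, adjusted p = 2.9e-05 by edgeR) and Akt1 (0.73, adjusted p = 0.000414 by edgeR) were called higher, calls that were lost with library size alone as the scaling, at 0.69 and 0.38. The number called lower was 4 with library size alone and 4 without PBS replicate 3, and ranged from 4 to 7 over the libraries left out 1 at a time.

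Markers of the sorted cells and of others were read beside these values, and their counts of calls stand against 23.3% of all genes tested called higher and 19.6% called lower. All 7 Paneth cell markers were tested, and only Pla2g2a was called, as higher. They had a summed level of 311000 to 459000 normalized CPM after PBS and 388000 to 1210000 after TNF, the last value being that of TNF replicate 4 after division by its scaling factor of 0.448. Of 7 endothelial markers none was tested, Tie1 and Emcn had no count, and the sum was 0.186 to 0.434 after PBS and 0.632 to 1.2 after TNF. Enteroendocrine markers, of which 4 of 6 were tested and all 4 called higher, summed to 30.7 to 31.9 and 64.4 to 80.2. Immune markers summed to 7.06 to 13.0 and 10.7 to 68.7, the highest being TNF replicate 4, with Cd3e at 0 and Cd52, 1 of the 2 tested, called higher. Stroma markers summed to 0.149 to 0.407 and 0.945 to 1.63, with Col1a2 and Col3a1 at 0 and Vim, the only marker tested, called higher. Goblet markers summed to 6520 to 10200 and 11000 to 22800, with 1 of 6 called higher and 2 lower. Enterocyte markers (24.7 to 34.8 and 14.8 to 54.1, 1 of 6 called lower) and stem cell markers (1460 to 2350 and 1310 to 1860, 4 of 5 called lower) overlapped between the groups in their sums. The part of any of these cells in the C2cd4 values was not tested.

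The genes whose log2 CPM followed a member most closely over the 8 libraries were listed among 8491 genes with a mean of at least 5 normalized CPM. For C2cd4b they were Cpne8 (Pearson r = 0.9991), Mfsd6l (0.9989), Myd88 (0.9989), Neurl3 (0.9988) and its antisense partner M5C1000I18Rik (0.9987). For C2cd4c they were Abcb9 (0.9945), Fam120c (0.9944), Iqsec1 (0.9941), Zfp395 (0.9934) and Epn3 (0.9927). Myd88 is the adaptor of Toll-like and interleukin-1 receptors, and Abcb9 a transporter of the lysosome. Correlations of this size follow mostly from the split into PBS and TNF libraries, since 829 genes exceeded 0.95 with C2cd4b and 361 with C2cd4c. The order among them is a description of these libraries.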

How the data were processed

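RNA of sorted Paneth cells was sequenced in 4 PBS and 4 TNF libraries, grouped and numbered by their labels. The authors deposited raw counts per Ensembl gene, with no normalization. The submitters' processing notes name FastQC 0.12, STAR 2.7.10a, DESeq2 and the build mm39, and the kit was TruSeq Stranded mRNA. The sources used here give no counter, strand setting or treatment of reads that match several genes, which limits the counts of C2cd4b, M5C1000I18Rik and C2cd4a.

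The 4 members and all lists were chosen with earlier results of these data known. Symbols, positions and exon lengths came from GENCODE release 39 (GRCm39), which lacked 665 of the 55414 IDs. TNF was compared with PBS across all genes by the quasi-likelihood test of edgeR 4.0.16 (limma 3.58.1, R 4.3.3), with TMM factors, the filterByExpr filter and Benjamini-Hochberg adjustment, with 0.05 as the threshold on the adjusted p. Members were given no p-value. SEs come from the F statistic. Normalized CPM were counts over the TMM-scaled library size. Levels of the members were set side by side per kb of exon, apart from the shares of family counts, which were not corrected for length. The limit of 3 counts for a library at 0 covers counting error only.

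Genes were named by rule: the 4 members, 3 protein-coding genes on either side of each, the 5 of each list with the smallest p, and the 5 genes most correlated with C2cd4b and with C2cd4c among those with a symbol and a mean of at least 5 normalized CPM (log2 CPM, prior count 2). M5C1000I18Rik, Syt1, Nfkbiz, Cxcl1 and the Foxo genes were named after their values were seen. Proteins were translated from the annotated coding sequences and aligned with Biopython 1.88 (BLOSUM62, gap opening 10, extension 1). Alternatives were RLE factors, library size alone, TMM factors without Defa genes, 2 other filters, DESeq2 1.42.0, limma-voom, a replicate block and leaving out each library. The scripts were tested on simulated counts. Values of some genes of the lists are not reported here.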

Additional observations from a re-analysis of the deposited data

Results flagged for a closer look

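The gap of the highest or lowest library to the nearest of the others, divided by the range of its group, was examined in 79 groups of 4 libraries with Dixon's criterion at the 95% level, and 6 groups (7.59%) were past it. Chance flags about 1 in 20 groups. No group of a C2cd4 member was among them. Abcb9 and Epn3 belong to the genes that followed C2cd4c most closely. Abcb9 had 29.3 normalized CPM in PBS replicate 4 against 35.4 to 35.8 in the other PBS libraries, and 11.7 in TNF replicate 2 against 9.34 to 9.66. Epn3 had 5.54 in TNF replicate 2 against 4.79 to 4.85 in the other TNF libraries. Tdrkh, near C2cd4d, had 1.09 in TNF replicate 3 against 0.623 to 0.687. Nfkb2 had 26.3 in PBS replicate 4 against 19.3 to 20.3, and 186.0 in TNF replicate 4 against 212.0 to 216.0 in the other TNF libraries.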

How the results depend on the processing

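C2cd4b stayed higher and C2cd4c lower after TNF under every alternative run. Library size alone, which shifted the median of all genes by -0.40, gave log2 fold changes of 6.02 for C2cd4b, -3.83 for C2cd4c and 1.11 for C2cd4a, a PBS level of 1.57 per kb for C2cd4c, and 757 genes called higher. Under it 0 flanking genes, 3 C2 domain genes and 0 insulin and FOXO genes were called higher, 4 insulin and FOXO genes were called lower, and Tln2 (-0.17), Vps13c (-0.42) and Them4 (-0.37) changed sign. Without the filter 1 flanking gene was called higher and Vps13c was at -0.03. Leaving out 1 library at a time gave 6.21 to 6.48 for C2cd4b, -3.61 to -3.37 for C2cd4c and 1.12 to 2.03 for C2cd4a, and 1 to 3 flanking genes called higher, with 1 where PBS replicate 1, TNF replicate 1 or TNF replicate 2 was left out. It gave 4 to 7 insulin and FOXO genes called lower, with 4 without PBS replicate 3. Vps13c ranged from -0.13 to 0.13 and Them4 from -0.09 to 0.23. Vps13c was at -0.03, -0.13, -0.04 and -0.01 without PBS replicate 2, PBS replicate 3, TNF replicate 2 and TNF replicate 4, and Them4 at -0.01 and -0.09 without PBS replicate 1 and TNF replicate 4. Neither gene was called. With the longest transcript as the length, C2cd4d had a PBS level of 0.0309 per kb. Of the 5 genes most like C2cd4b, 2 were shared with a ranking by Spearman correlation and 2 with one without TNF replicate 4, and of those most like C2cd4c 0 and 1. The labels do not say whether the replicate numbers pair the libraries. Deviations of same-number libraries correlated at -0.144 to 0.066, which cannot settle it. With the replicate numbers as a block, log2 fold changes were 6.34 (C2cd4b), -3.49 (C2cd4c) and 1.5 (C2cd4a), with 2741 genes called higher and 2346 lower. C2cd4a had no value with a filter of at least 1 CPM in 4 libraries, since it did not pass. The causes of these changes were not tested. At this depth C2cd4d, at 0 to 3 counts, could not be compared.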
